A study of Mus musculus with 21 samples.

Results

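The 30 mouse genes described here, out of 48440 in the count tables, are listed as splicing targets of the epithelial splicing regulatory proteins Esrp1 and Esrp2. The members were chosen by name, as every row of the transcript table that belongs to a listed gene, with Cd44 and the FGF receptors left out. The study lowered or raised Esrp2-as, a noncoding RNA read from the strand opposite Esrp2, and sequenced RNA of 3 cell lines. M6 and M27H4 are mouse lines from mammary tumours of the C3(1)SV40 TAg model, and 3T3-L1 is a preadipocyte line. The M6 groups were 2 control replicates, labelled as empty vector, and 2 replicates in which LNA antisense gapmers lowered Esrp2-as. The M27H4 groups were 3 empty vector control and 3 Esrp2-as overexpression replicates, and the 3T3-L1 groups were 2 and 2 of the same kinds. The titles call the replicates biological and mark technical replicates apart from them. The labels name no control gapmer for M6 and do not say whether a line is 1 clone. They also do not say that replicates were separate cultures, so the p-values measure only the spread between these samples, which may be technical. All cells were grown in DMEM with FCS. The 21 deposited columns were summed to 14 replicates of 34892461 to 328493417 counts each.

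Esrp1 and Esrp2 are RNA-binding proteins of epithelial cells that recognise GU-rich RNA such as GGUGG. They favour inclusion of some exons and skipping of others, depending on where they bind around the exon. Loss of both proteins is known from the change of epithelial to mesenchymal cells, in which genes of adhesion, polarity, the actin skeleton and vesicle traffic switch splice form. In the present lines Esrp1 was at 114 ± 11.1 CPM (counts scaled to the library size; mean ± SD, n = 2) in M6 control, 0.671 ± 0.581 (n = 3) in M27H4 control and 0.472 ± 0.133 (n = 2) in 3T3-L1 control. Esrp2 was at 62.3 ± 4.98, 13.3 ± 1.89 and 0.305 ± 0.0197 CPM in the same groups. Each was highest in M6, and M27H4 kept more Esrp2 than 3T3-L1. Esrp2-as, listed as 1810019D21Rik, was at 2.96 and 2.42 CPM in M6 control and at 0.527 and 0.851 in the knockdown, a difference that did not pass the test (edgeR's quasi-likelihood test, adjusted p = 0.363). It rose from 0.958 ± 0.267 to 47.7 ± 27.6 CPM in M27H4 (adjusted p = 0.00152) and from 0.303 ± 0.0743 to 40.6 ± 7.32 in 3T3-L1 (adjusted p = 0.00258). Esrp2-as overlaps Esrp2 on the opposite strand, and which strand setting was used for counting is not given in the sources used here, so both values are uncertain there.

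The exons that were followed are short. A cassette exon is one that some annotated transcripts of a gene include and others skip. Of the 142 such events annotated in the members, 98 passed the filters. These asked that the included and the skipped form each reach 5% in at least 2 replicates of at least 20 counts. For each of 27 genes the event with the smallest p between 3T3-L1 control and M6 control is shown. Whether that event is the one for which the gene is listed as an Esrp target was not checked. That choice favours exons whose values are apart in these 2 groups, so their separation below is partly built in. Of these 27 exons 22 were wholly coding, and 20 of the 22 had a length that is a multiple of 3, against 51.9% of all 5606 tested coding exons. Their lengths ran from 15 to 168 bases. The sequences of the exons of Ctnnd1, Enah, Arhgef10l, Arhgef11, Map3k7, Exoc7, Slk and Lsr, which the results below turn on, are printed 5′ to 3′ on the strand of the gene, with GGTGG in capitals. They were read from GENCODE M21 transcripts on GRCm38.
Ctnnd1: atgagtggttctccagag
Enah: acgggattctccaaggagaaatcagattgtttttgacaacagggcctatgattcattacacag
Arhgef10l: gccctccaaccacag
Arhgef11: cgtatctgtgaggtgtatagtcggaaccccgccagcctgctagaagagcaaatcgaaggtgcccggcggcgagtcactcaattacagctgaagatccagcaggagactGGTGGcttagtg
Map3k7: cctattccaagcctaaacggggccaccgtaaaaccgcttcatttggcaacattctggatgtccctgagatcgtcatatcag
Exoc7: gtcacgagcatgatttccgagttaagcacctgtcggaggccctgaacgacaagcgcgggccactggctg
Slk: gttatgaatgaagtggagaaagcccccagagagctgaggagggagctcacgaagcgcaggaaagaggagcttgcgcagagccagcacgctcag
Lsr: acaagtgctgttgccctgaggccc

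GGTGG, the DNA form of the motif that Esrp proteins bind, was searched on the transcribed strand of each coding exon and was found in 3 of the 22, those of Arhgef11, Dnm2 and Nfya. Among all tested coding exons 2.82% of those up to 50 bases, 9.34% of those over 50 and up to 100, and 19.8% of those over 100 and up to 300 bases held it, and the members had 0 of 6, 1 of 10 and 2 of 6 in these length classes. TGCATG, the motif of Rbfox proteins, was in 0 of the 22, against 0.982, 1.497 and 4.55% of all exons of these lengths. The introns around the exons were not searched, and a match or its absence within an exon is a description of these letters only.

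Within a line, neither knockdown nor overexpression of Esrp2-as moved a member past the test, with the exception of Lsr in 3T3-L1. At gene level 0 of 30 members passed an adjusted p under 0.05 in M6 knockdown (percent of all 21237 genes called: 0.137), in M27H4 overexpression (0.00942) or in 3T3-L1 overexpression (0.00471), by edgeR's quasi-likelihood test or by DESeq2. Unadjusted p-values under 0.05 were found for 1, 0 and 0 members. The 1 was Ralgps2 in the M6 knockdown, a Ral exchange factor that was at 1.97 ± 0.626 CPM in control and 4.45 ± 0.358 in knockdown (log2 fold change 1.16, adjusted p = 0.786). The 30 members lay between -0.50 (Grhl1) and 1.16 in that comparison, between -0.43 (Ralgps2) and 0.25 (Numb) in M27H4, and between -0.27 (Grhl1) and 0.29 (Plekha1) in 3T3-L1, on the log2 scale. By transcript share, the percent of a gene's counts assigned to a transcript, limma on the arcsine square root of the shares called 0 of 28 members in the M6 knockdown (0.0539% of all genes tested were called), 0 of 27 in M27H4 overexpression (0.0%) and 0 of 28 in 3T3-L1 overexpression (0.0738%). A transcript with an unadjusted p under 0.05 was found in 2, 3 and 4 members. By exon inclusion, the percent of transcripts including an exon after counts were divided by transcript length, limma called 0 of 27 members in the knockdown (0.0945%), 0 of 26 in M27H4 (0.0218%) and 1 of 27 in 3T3-L1, Lsr (0.216%), with 1, 5 and 4 members holding an event of unadjusted p under 0.05. The median absolute difference in inclusion over the member events was 3.95 points in the knockdown, 2.84 in M27H4 and 5.62 in 3T3-L1 overexpression, against 3.61, 3.25 and 3.27 points over all events. No member was called for a difference between the 2 overexpression effects (smallest adjusted p 1 at gene level, 0.489 by share and 0.0922 by inclusion).

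Differences between the lines were found at gene level, and by share in 4 members. Against M6 control, 13 of 30 members passed in M27H4 control, 5 higher and 8 lower (30.2% of all genes called, 15.2% higher and 15.0% lower). In 3T3-L1 control 11 passed, 3 higher and 8 lower (39.4%, 20.5% and 18.9%), and between 3T3-L1 and M27H4 control 13 passed, 4 higher and 9 lower (36.6%, 18.9% and 17.8%). In each comparison the members called lower outnumbered those called higher. The median log2 fold change of the members was -0.23, -0.46 and -0.10, against 0.02, 0.05 and 0.02 over all genes. In bulk RNA, fewer cells that make a transcript and less RNA per cell cannot be told apart. By transcript share 3 of 28 members were called in M27H4 against M6 (1.06% of all genes), 4 of 28 in 3T3-L1 against M6 (3.18%) and 1 of 28 in 3T3-L1 against M27H4 (3.4%). The called genes were Epb41l5 in each, Slk and Arhgef10l in both comparisons with M6, and Nf2 in 3T3-L1 against M6. For each of these genes the transcript compared between lines below was that of smallest p between 3T3-L1 and M6 control. Its separation between these groups is therefore partly built in. By exon inclusion 0 of 27 members were called in each of these comparisons (0.237, 1.55 and 2.05%), with an event of unadjusted p under 0.05 in 10, 12 and 7. The comparisons share their control samples and are not independent of each other. In simulated data for 3T3-L1 against M6 the tests recovered 19 of 92 changes of 40 points by share and 2 of 16 by inclusion. Members not called are therefore not shown to be unchanged.

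How far apart 2 readings of the same library lie limits every share below. The deposited counts are estimates that assign reads among overlapping transcripts, and 42 member transcripts of 15 genes were at 0 on 1 lane and at 100 counts or more on the other lane of the same library, over 5 libraries run on 2 lanes. The median absolute difference in inclusion between the lanes of a library was 3.16 to 8.57 points for member events and 3.60 to 4.10 for other events, and the largest member difference was 96.7 points. Between replicates of a group it was 2.85 to 7.43 points for members and 4.35 to 5.89 for other events. Against M6, the member medians were 6.91 points in M27H4 and 8.06 in 3T3-L1, and it was 6.57 points between 3T3-L1 and M27H4. All events gave 4.19, 4.87 and 4.76 points.

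**Figure D1:**
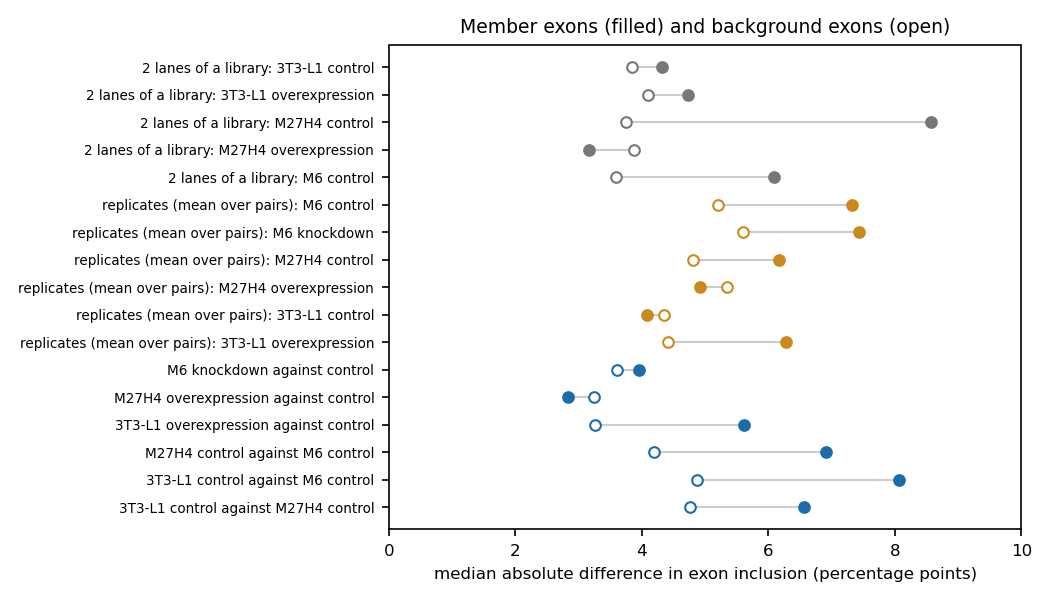
The x axis gives the median absolute difference in exon inclusion in percentage points, with filled points for member exons and open points for background exons. Rows are the 2 lanes of a library (grey), replicates of a group (orange) and the 6 comparisons (blue). The member medians of the comparisons, 2.84 to 8.06 points, lie over much of the span of those between lanes, 3.16 to 8.57 points.

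Among the adhesion and polarity genes, Epb41l5 showed the clearest difference. It codes for a FERM domain protein that acts at the junctions of epithelial cells and in their change to mesenchymal cells. Its gene lies on chromosome 1 from 119545037 to 119649000, minus strand. Transcript Epb41l5-202 has 25 exons and ends in an exon at chr1:119545037-119549195. Transcripts Epb41l5-201 and Epb41l5-208 have 17 exons each and end further upstream, at chr1:119595074-119596059 and chr1:119590742-119596059. The 3 share 15 exons, and they differ in their 3′ ends rather than by a cassette exon. Epb41l5-202 held 2.58 and 2.29% of the gene's counts in the M6 control replicates, and 3.33 and 1.77% in the knockdown. In M27H4 control it held 49.4, 48.2 and 56.6%, and with overexpression 62.2, 69.3 and 57.8%. In 3T3-L1 control it held 81.6 and 76.0%, and with overexpression 85.8 and 82.9%. The control lines did not overlap, and neither did control and overexpression within M27H4 or within 3T3-L1, yet overexpression was not called in either line. Against M6, the share was 49.0 points higher in M27H4 (limma, adjusted p = 0.000796) and 76.4 points higher in 3T3-L1 (adjusted p = 0.000103). Between 3T3-L1 and M27H4 it was 27.4 points higher in 3T3-L1 (adjusted p = 0.0346), a call that was kept only without M27H4 control replicate 3 when replicates were left out, where the largest adjusted p was 0.229. On the lanes shared by the 3 lines, with 1 replicate each, the shares were 2.19, 48.2 and 81.6%.

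The shift in share came with a drop in the gene as a whole. Epb41l5 was at 67.3 ± 1.38 CPM in M6 control, 65 ± 3.21 in knockdown, 16.5 ± 3.48 in M27H4 control, 17.4 ± 3.54 with overexpression, 9.90 ± 0.946 in 3T3-L1 control and 10.7 ± 0.924 with overexpression. The log2 fold changes were -2.03 in M27H4 against M6 (edgeR, adjusted p = 6.48e-06), -2.76 in 3T3-L1 against M6 (adjusted p = 1.28e-06) and -0.73 between 3T3-L1 and M27H4 (adjusted p = 0.0154). The last call was lost without M27H4 control replicate 3 or 3T3-L1 control replicate 2 (adjusted p up to 0.138). Gene CPM multiplied by share gave Epb41l5-202 a level of 1.64 ± 0.170 CPM in M6 control, 8.56 ± 2.59 in M27H4 control and 7.82 ± 1.14 in 3T3-L1 control. Epb41l5-208 had 38.6 ± 6.97, 4.18 ± 3.14 and 1.48 ± 0.474 CPM in the same groups. Epb41l5-202 thus had a higher level, and Epb41l5-208 a lower one, in the lines with less of the gene. The split between Epb41l5-208 and Epb41l5-201 varied between replicates, with 49.4 and 65.7% in the M6 control replicates for the former and 42 and 29.98% for the latter.

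**Figure D2:**
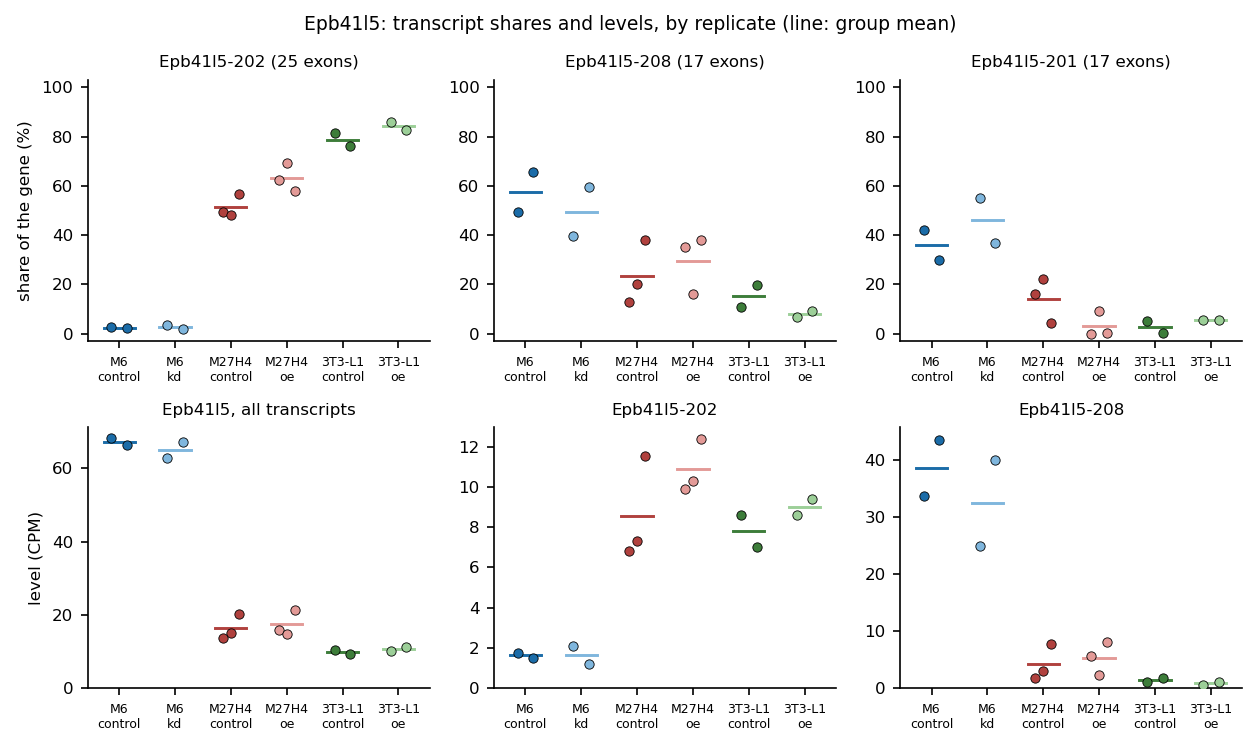
The upper row gives the share of the Epb41l5 counts held by 3 transcripts in percent, and the lower row the level of the gene and of 2 transcripts in CPM, with 1 point per replicate and a line at each group mean (kd, knockdown; oe, overexpression). Epb41l5-202 has a share of 1.77 to 3.33% in M6 and of 48.2 to 85.8% in the other lines.

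Nf2, which codes for the tumour suppressor merlin, has a cassette exon of 45 bases at chr11:4780578-4780622 that is only partly coding. Its inclusion was 85.4 and 87.1% in M6 control, 74.7 and 89.0% in knockdown, 64.2, 52.8 and 62.8% in M27H4 control and 47.4, 52.6 and 41.8% with overexpression. In 3T3-L1 it was 58.7 and 63.7% in control and 64.0 and 67.4% with overexpression. M6 control lay above both other control lines without overlap, by 26.3 points over M27H4 and 25.0 points over 3T3-L1 (limma, adjusted p = 0.217 and 0.163, not called). Transcript Nf2-202, which includes the exon, held 69.7 and 68.5% of counts in M6 control and 55.8 and 64.2% in knockdown. It held 41.7, 33.9 and 41.5% in M27H4 control, 27.7, 30.4 and 19.2% with overexpression, 38.2 and 34.8% in 3T3-L1 control and 42.7 and 51.1% with overexpression. By inclusion and by share, overexpression lay below control in M27H4 and above it in 3T3-L1 without overlap, and was called in neither line. The share was 32.6 points lower in 3T3-L1 than in M6 (adjusted p = 0.0385), and 30.1 points lower in M27H4 (adjusted p = 0.0695). The 3T3-L1 call was lost whichever of the 4 replicates was left out (largest adjusted p 0.203). On the shared lanes the shares were 71.9% in M6, 33.9% in M27H4 and 38.2% in 3T3-L1. The columns of M6 control replicate 2 ran from 58.0 to 84.7%. The 2 lanes of 3T3-L1 overexpression replicate 1 gave 68.6 and 24.1%, so single lanes of the lines overlap.

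Lsr was the member with the strongest drop in level and the only one called within a line. It codes for the lipolysis-stimulated receptor, a protein of tricellular junctions. Lsr was at 109 and 147 CPM in M6 control, 94.3 and 125 in knockdown, 0.926, 3.61 and 4.86 in M27H4 control, 0.584, 3.28 and 4.54 with overexpression, 0.473 and 0.590 in 3T3-L1 control and 0.607 and 0.497 with overexpression. It was 40.4-fold lower in M27H4 and 242-fold lower in 3T3-L1 than in M6 (adjusted p = 0.000434 and 0.000178). In M27H4 replicate 1, on a lane that held only M27H4 libraries, Lsr was lower and Esrp1 was at 0 counts, while the other M27H4 replicates shared lanes with M6. Whether sharing a lane adds to the low levels was not tested.

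The 24-base exon of Lsr, at chr7:30962098-30962121, was included at 3.21 and 4.2% in M6 control, 3.00 and 3.82% in knockdown, 0 and 0% in 3T3-L1 control and 47.4 and 66.4% in 3T3-L1 overexpression. In M27H4 the value was 10.1 and 15.7% in 2 control replicates and 0 and 7.83% in 2 overexpression replicates, with replicate 1 under the minimum of 20 counts. The rise in 3T3-L1 was 56.9 points, and an event of 465 bases, made of 2 exons missing from the same transcript Lsr-204, fell from 100 and 100% to 68.2 and 68.3% (limma, adjusted p for the gene 0.0388). The counts behind this were few. Lsr had 104 and 73 counts in the 3T3-L1 control replicates, with 0 and 0 on Lsr-204, and 145 and 56 with overexpression, with 29 and 11 on Lsr-204. By lane, Lsr-204 held 20 of 48, 9 of 97 and 11 of 56 counts of the gene with overexpression. Inclusion of the 24-base exon compares Lsr-204 with only 1 skipping transcript, so it rests on a part of the counts of the gene. The call of Lsr was lost whichever of the 4 replicates was left out, while the difference of the 465-base event stayed at -31.8 to -31.7 points. Under a minimum of 100 counts Lsr could not be tested here, since the replicates with 73 and 56 counts fell below it.

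Ctnnd1 codes for p120 catenin, which holds cadherins at the cell surface. Its 18-base exon at chr2:84612532-84612549 was included at 18 and 38.6% in M6 control, 32.9 and 33.3% in knockdown, 10.6, 19.0 and 21.6% in M27H4 control and 40.2, 13.5 and 11.1% with overexpression. In 3T3-L1 it was included at 67.2 and 52.8% in control and 53.1 and 46.8% with overexpression. The 3T3-L1 replicates lay above all others, but the difference of 31.7 points from M6 was not called (limma, adjusted p = 0.556), nor was that of 42.9 points from M27H4 (adjusted p = 0.173). Replicates of M27H4 overexpression differed by more than the M27H4 groups did.

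The other adhesion and polarity members gave no called exon. Scrib, a polarity scaffold, had a 75-base exon at 0.0416 and 17.7% in M6 control, 61.6, 50.7 and 39.4% in M27H4 control, 34.7 and 43.8% in 3T3-L1 control and 0.0984 and 0.108% in 3T3-L1 overexpression. The M6 knockdown replicates of Scrib were at 0.0652 and 37.4%, far apart within 1 group. Magi1, a junction scaffold, had values from 3.46 to 78.2% for its 168-base exon, with a spread within groups of up to 38.1 points (SD). Pard3, a polarity protein, had group means of 50.8 to 75.8% for its 45-base exon, and Numb, an endocytic inhibitor of Notch, had 74.5 to 84.7% for an 85-base noncoding exon. At gene level Magi1 was 3.37-fold lower (adjusted p = 6.68e-05) and Numb 2.30-fold lower (adjusted p = 0.00164) in 3T3-L1 than in M6. Scrib was 1.74-fold higher in M27H4 than in M6 (adjusted p = 0.0163) and Pard3 1.53-fold lower (adjusted p = 0.0146). Both calls were lost without M6 control replicate 1, with an adjusted p of 0.218 for Pard3, and that of Scrib also without M6 control replicate 2 or M27H4 control replicate 2 (up to 0.0816).

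Of the genes of actin and microtubules, Arhgef10l was called by share. It codes for a guanine nucleotide exchange factor. Its 15-base exon at chr4:140568756-140568770 was included at 62.9 and 81.1% in M6 control, 75.7 and 77.0% in knockdown, 31.5, 41.4 and 41.0% in M27H4 control and 42.3, 47.9 and 40.9% with overexpression. In 3T3-L1 it was included at 36.2 and 56.7% in control and 41.7 and 40.5% with overexpression. Both M6 groups lay above the other 4. Transcript Arhgef10l-202, which includes the exon, held 56.7 and 72.3% of counts in M6 control, 75.9 and 73.8% in knockdown, 26.9, 27.9 and 26% in M27H4 control, 42.9, 41.6 and 41.4% with overexpression, 23.9 and 26.5% in 3T3-L1 control and 30.5 and 33.6% with overexpression. The share was 37.5 points lower in M27H4 than in M6 (adjusted p = 0.0161) and 39.3 points lower in 3T3-L1 (adjusted p = 0.0128). The M27H4 call was kept in 1 of 5 fits that left out a replicate, the one without M6 control replicate 1, with an adjusted p of up to 0.0871. The 3T3-L1 call was lost without either 3T3-L1 replicate (adjusted p up to 0.0845). The groups in M27H4 did not overlap, with a mean 15.0 points higher with overexpression, and the adjusted p was 1. Within the pairs that share a replicate number the differences were 16.1, 13.6 and 15.4 points, and the adjusted p with the replicate block was also 1. In the M27H4 control library run on 2 lanes the share was 40.0 and 18.5%, a gap that exceeds this difference.

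**Figure D3:**
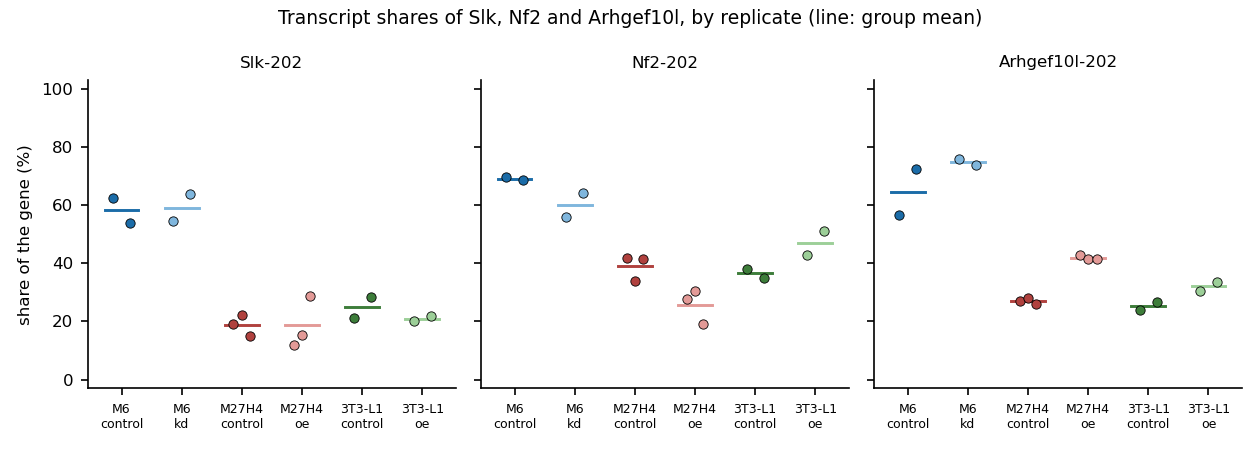
Percent of the gene's counts on Slk-202, Nf2-202 and Arhgef10l-202, with 1 point per replicate and a line at the group mean (kd, knockdown; oe, overexpression). For each transcript both M6 groups lie above all M27H4 and 3T3-L1 replicates, the lowest M6 values being 53.7, 55.8 and 56.7%. The transcripts were chosen by smallest p between 3T3-L1 and M6 control, so this separation is partly built in. These are replicates with their columns summed, and 1 lane of 3T3-L1 overexpression replicate 1 reached 68.6% on Nf2-202.

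Arhgef11, another guanine nucleotide exchange factor, held the GGTGG motif in its 120-base exon at chr3:87695398-87695517. Inclusion was 71.4 and 65.5% in M6 control, 47.5 and 62.0% in knockdown, 77.8, 66.0 and 56.6% in M27H4 control, 59.1, 66.0 and 80.1% with overexpression, 83.0 and 83.8% in 3T3-L1 control and 59.2 and 60.0% with overexpression. The 3T3-L1 groups did not overlap and differed by -23.8 points with overexpression, without passing the test (limma, adjusted p = 1).

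Enah, an actin regulator of the Ena/VASP family, has a 63-base exon at chr1:181911597-181911659 that is a textbook mark of epithelial cells. It was included at 47.5 and 31.5% in M6 control, 52.2 and 25.5% in knockdown, 7.89, 24.4 and 39.2% in M27H4 control, 45.0, 15.3 and 36.4% with overexpression, 15.7 and 3.34% in 3T3-L1 control and 18.4 and 21.2% with overexpression. The 3T3-L1 control mean was 30.01 points below that of M6, and the difference was not called (adjusted p = 0.498). The M27H4 control values overlapped those of both other control lines. The 2 lanes of M27H4 control replicate 2 gave 8.04 and 44.0%, so the lane gap exceeds the difference between the lines.

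In Baiap2, a scaffold of membrane protrusions, a 48-base exon was included at 39.8 and 51% in M6 control, 26.2, 26.4 and 41.8% in M27H4 control and 16.3 and 19.4% in 3T3-L1 control, with 77.2 and 51.2% in the M6 knockdown. Cttn, which codes for cortactin, had its 111-base exon at 57.7 and 58.3% in M6 control, 68.8 to 74.3% in M27H4 control and 75.8 and 75.2% in 3T3-L1 control. Mprip, a partner of myosin phosphatase, stayed at group means of 60.1 to 68.8% and Macf1, a linker of microtubules and actin, at 73.3 to 92.2%. None of the 4 was called by inclusion or share (adjusted p 0.181 for Baiap2 and 0.410 for Cttn in 3T3-L1 against M6). At gene level Baiap2 was 1.69-fold higher in 3T3-L1 than in M27H4 (adjusted p = 0.0254) and Enah 1.75-fold lower in 3T3-L1 than in M6 (adjusted p = 0.0124). The call of Baiap2 was lost in 3 of 5 fits that left out a replicate (adjusted p up to 0.171) and that of Enah in 3 of 4 (up to 0.147). Arhgef11 was 1.44-fold higher in 3T3-L1 than in M27H4 (adjusted p = 0.0393), a call lost whichever replicate was left out (up to 0.305).

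Slk, a Ste20-like kinase of the cell cortex, and Map3k7, which codes for the kinase TAK1, are the signalling members with Ralgps2. The 93-base exon of Slk at chr19:47627648-47627740 was included at 74.8 and 67.2% in M6 control, 67.9 and 75.6% in knockdown, 29.8, 32.9 and 23.5% in M27H4 control, 19.1, 23.9 and 41.1% with overexpression, 31.8 and 41.2% in 3T3-L1 control and 30.4 and 32.6% with overexpression. All M6 replicates lay above all others. The difference from M6 was -42.3 points in M27H4 (adjusted p = 0.0636) and -34.5 points in 3T3-L1 (adjusted p = 0.0766), short of the threshold by inclusion. By share, Slk-202, which includes the exon, held 62.6 and 53.7% of counts in M6 control, 54.5 and 63.8% in knockdown, 19.2, 22.1 and 15.1% in M27H4 control, 12.0, 15.3 and 28.8% with overexpression, 21.2 and 28.4% in 3T3-L1 control and 20.1 and 21.9% with overexpression. It was 39.3 points lower in M27H4 than in M6 (adjusted p = 0.0211) and 33.3 points lower in 3T3-L1 (adjusted p = 0.0432). The first call was kept only without M6 control replicate 2 and the second in none of 4 fits that left out a replicate (largest adjusted p 0.161 and 0.237). The columns of M6 control replicate 2 ran from 37.8 to 63.1% on Slk-202. Slk-201, which skips the exon, also ends in a last exon of 3300 bases where that of Slk-202 has 509, so the share mixes exon use with 3′ end length. The same holds for Nf2, where Nf2-202 ends in 609 bases and Nf2-205, which skips its exon, in 2429. With shares divided by transcript length the calls ended, at an adjusted p of 0.0539 and 0.113 for Slk in M27H4 and 3T3-L1 and 0.0873 for Nf2 in 3T3-L1.

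The 81-base exon of Map3k7 at chr4:31994874-31994954 was included at 64.9 and 49.4% in M6 control, 92.8 and 56.2% in knockdown, 37.4, 40.9 and 46.8% in M27H4 control, 43.2, 47.5 and 42.9% with overexpression, 45.2 and 38.9% in 3T3-L1 control and 41.8 and 49.8% with overexpression. M6 control lay above both other controls without overlap, by 15.5 and 15.1 points (adjusted p = 0.858 and 0.828). In the knockdown, 1 replicate was above 90% and the other within the range of the controls, a mean difference of 17.3 points (adjusted p = 1). Ralgps2 was at 0.214 ± 0.144 CPM in M27H4 control and 10.1 ± 1.39 in 3T3-L1 control, 44.2-fold apart (adjusted p = 4.73e-06), and its exon could be read in only 2 M27H4 control replicates.

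**Figure D4:**
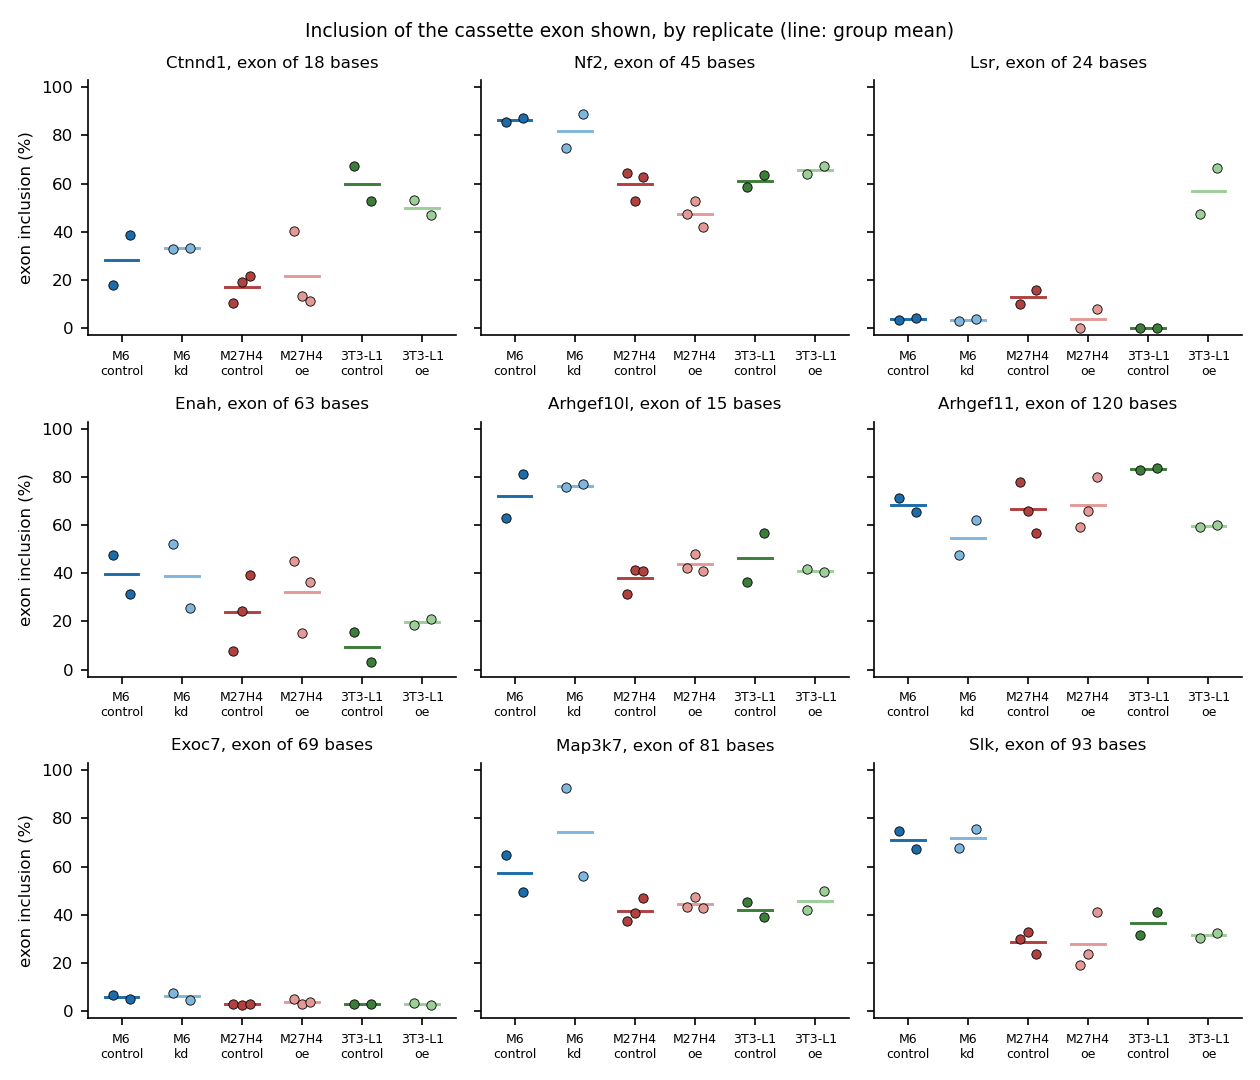
Inclusion in percent of the cassette exon of the members named above each panel, with 1 point per replicate and a line at each group mean (kd, knockdown; oe, overexpression). The exons of Slk, Nf2 and Arhgef10l have higher values in M6 than in the other lines, while the M27H4 control replicates of Enah run from 7.89 to 39.2%.

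Of the vesicle and membrane traffic genes, Sec31a, Osbpl3, Exoc7, Dnm2 and Kif13a were called by level between lines, and none by exon inclusion or share. Sec31a codes for a coat protein of vesicles that leave the endoplasmic reticulum. It was at 114 ± 1.56 CPM in M6 control, 232 ± 30.7 in M27H4 control and 356 ± 17.2 in 3T3-L1 control, 2.03-fold higher in M27H4 (adjusted p = 0.000435) and 3.12-fold higher in 3T3-L1 (adjusted p = 1.27e-05) than in M6. Its 78-base exon at chr5:100388534-100388611 was included at 52.4 and 59.3% in M6 control, 65.8, 76.1 and 78.8% in M27H4 control and 87.9 and 88.8% in 3T3-L1 control. The 3 control lines did not overlap, and the gap of 32.5 points between 3T3-L1 and M6 did not pass the test (adjusted p = 0.0713). Osbpl3, an oxysterol-binding protein, was at 162 ± 19.1, 79.3 ± 5.71 and 30.6 ± 4.18 CPM in the 3 controls, 2.04-fold lower in M27H4 (adjusted p = 0.000246) and 5.29-fold lower in 3T3-L1 (adjusted p = 4.23e-07). Its 108-base exon was included at 34.2 and 27.8% in M6 control and at 8.23 to 22.3% in the other controls, without a call.

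Exoc7, a subunit of the exocyst that tethers secretory vesicles, has a 69-base exon at chr11:116296730-116296798 with little inclusion in any line. It was at 6.69 and 5.15% in M6 control, 7.53 and 4.63% in knockdown, 2.82, 2.70 and 2.95% in M27H4 control, 4.91, 3.10 and 3.61% with overexpression, 2.76 and 2.87% in 3T3-L1 control and 3.31 and 2.45% with overexpression. M6 control was above both other controls in every replicate, by amounts that were not called (adjusted p = 0.751 and 0.868). Among the rest, Dnm2, which codes for the GTPase dynamin that cuts vesicles off membranes, had group means of 80.0 to 87.7% for its 139-base exon, and Arfgap2, a regulator of COPI coats, 34.1 to 64.6% for one of 42 bases. Plekha1, a lipid-binding adaptor, had its 71-base exon at 12.5 and 10.7% in M6 control, 89.7, 28.6 and 27% in M27H4 control and 55.1 and 71.7% in 3T3-L1 control, with as few as 56 counts in a replicate. Kif13a, a kinesin with 1 listed transcript, gave no share, and was 1.90-fold lower in M27H4 than in M6 (adjusted p = 0.00461). Dnm2 was 1.68-fold higher in M27H4 than in M6 (adjusted p = 0.00195), and Exoc7 1.57-fold higher (adjusted p = 0.0133) and 1.59-fold higher in 3T3-L1 (adjusted p = 0.0135). Without M6 control replicate 1 the calls of Kif13a and Exoc7 in M27H4 were lost, with an adjusted p of 0.0973 and 0.0938. The call of Exoc7 in 3T3-L1 was lost without M6 control replicate 1 or 3T3-L1 control replicate 2 (up to 0.0780).

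The transcription and RNA-processing members were Grhl1, Mbnl1, Tcf7l2 and Nfya. Grhl1, a grainyhead factor of epithelia, was at 15.0 ± 5.52 CPM in M6 control, 2.80 ± 0.308 in M27H4 control and 0.585 ± 0.119 in 3T3-L1 control, 5.35-fold and 25.5-fold lower than in M6 (adjusted p = 2.61e-05 and 4.83e-07), and had no cassette exon. Mbnl1, itself a splicing regulator, had a 114-base noncoding exon that was read from only 9 to 633 counts in a replicate. It was included at 100 and 77.8% in M6 control and 51 and 49.3% in knockdown. That difference of -38.7 points was not called (limma, adjusted p = 1). In M27H4 it was at 75.2 and 48.1% in control and 100 and 100% with overexpression, also without a call. Replicate 1 of both M27H4 groups was under the minimum count. Nfya, a subunit of the CCAAT-binding factor, holds GGTGG at 2 places in its 87-base exon, which was included at 25.4 and 36.8% in M6 control, 59.0 and 51.8% in knockdown, 33.3, 72.6 and 54.6% in M27H4 control and 91.2 and 62.4% in 3T3-L1 control (adjusted p = 1 for the knockdown and 0.339 for 3T3-L1 against M6). Tcf7l2, a Wnt pathway factor, had 0 to 18% inclusion of its 75-base exon on 64 to 708 counts, and was 2.05-fold lower in M27H4 than in M6 (adjusted p = 0.0269, and up to 0.279 with a replicate left out). Uap1, which makes UDP-N-acetylglucosamine, had its 48-base exon at 55.4 and 54.8% in M6 control, 62.3, 61.4 and 60.9% in M27H4 control and 77.1 and 64.1% in 3T3-L1 control, without a call (adjusted p = 0.864 and 0.378). Its level was 1.61-fold higher in M27H4 than in M6 (adjusted p = 0.0140, and 0.143 without M6 control replicate 1).

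**Figure D5:**
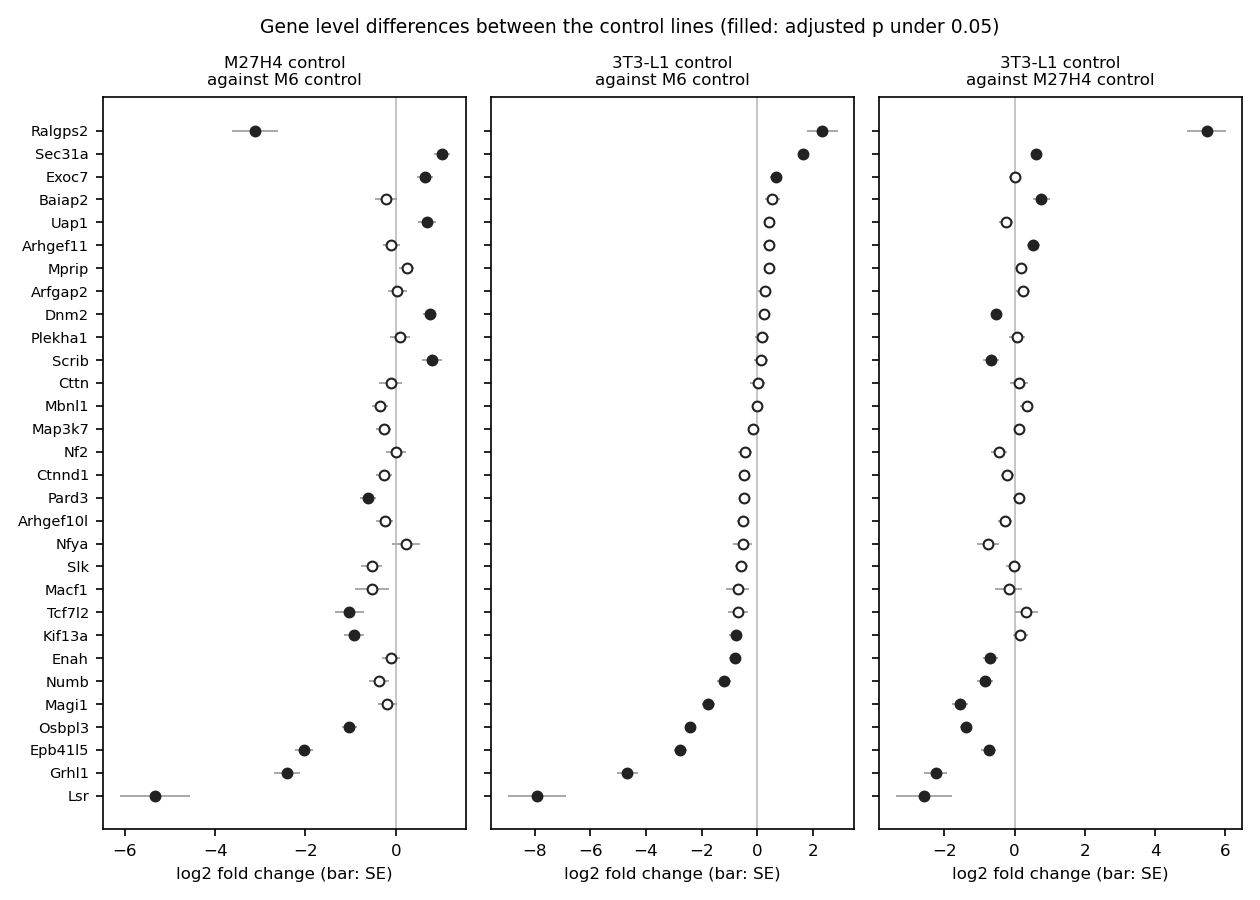
Log2 fold change in gene level with its standard error for the 30 members in the 3 comparisons of control lines, ordered by 3T3-L1 against M6 (filled points: adjusted p under 0.05). Lsr and Grhl1 have the lowest values in that comparison, -7.92 and -4.67, and Ralgps2 and Sec31a the highest, 2.34 and 1.64.

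Separation of the replicates gives another count of events. Events whose replicate ranges were separate by group and whose means differed by at least 20 points were 4 of 98 member events in the knockdown, 3 of 95 in M27H4 overexpression and 6 of 98 in 3T3-L1 overexpression, or 4.08, 3.16 and 6.12%, against 4.24, 2.13 and 4.19% of all events. Between control lines they were 14 of 98 in M27H4 against M6 (14.3%, all events 5.94%), 20 of 98 in 3T3-L1 against M6 (20.4%, all events 9.69%) and 9 of 98 in 3T3-L1 against M27H4 (9.18%, all events 8.07%). The events of a gene overlap, and the 20 came from 12 genes. Arhgef10l, Ctnnd1, Magi1, Mbnl1, Nf2, Plekha1, Scrib, Sec31a and Slk were in both lists against M6.

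A list of splicing regulators held Esrp1, Esrp2 and 33 others. Of these 35, 33 were tested, and 0 were called in any comparison within a line. In M27H4 against M6, 3 were higher and 6 lower, in 3T3-L1 against M6, 4 higher and 9 lower, and between 3T3-L1 and M27H4, 5 higher and 7 lower. These are 9, 13 and 12 of 33, beside 30.2, 39.4 and 36.6% of all genes called. Esrp1 and Esrp2 are among the lower ones against M6, and Esrp2 between 3T3-L1 and M27H4. Rbfox2, which binds TGCATG, was at 79.7 ± 3.21, 154 ± 7.41 and 249.6 ± 4.34 CPM in M6, M27H4 and 3T3-L1 control. Rbm47, an RNA-binding protein of epithelia, was at 42.1 ± 11.6, 15.0 ± 1.94 and 1.16 ± 0.160 CPM, and Ptbp3 at 301 ± 9.22, 143 ± 9.56 and 116 ± 6.84 CPM. Khdrbs3, of the STAR family, was at 4.47 ± 0.560, 199 ± 59.8 and 0.606 ± 0.490 CPM. The part of these factors, or of Esrp1 and Esrp2, in the shares above was not tested.

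The lines also differed in cell type markers. All 8 epithelial markers were lower in both M27H4 and 3T3-L1 than in M6, with a summed level of 4218 to 6100 CPM in M6 control, 164 to 289.6 in M27H4 control and 22.6 to 28.9 in 3T3-L1 control. Cldn4 and Cldn7 had 0 counts in at least 1 replicate outside M6. Epcam was at 4.31 ± 4.06 CPM in M27H4 control, and its lowest value in any replicate of the series was 0.0488. These markers of the mammary epithelium were thus nearly absent from a line labelled as a mammary tumour line, in which Cdh1 remained at 134 ± 29.9. As for Lsr, whether sharing a lane with M6 adds to such low levels was not tested. Mesenchymal and preadipocyte markers summed to 445 to 556 CPM in M6 control, 1852 to 2186 in M27H4 control and 5461 to 6309 in 3T3-L1 control. Of these 8 markers 4 were higher and 1, Cdh2, lower in M27H4 than in M6, and 7 were higher in 3T3-L1. Zeb1, a repressor of epithelial genes, rose in the M6 knockdown from 1.66 ± 0.325 to 5.53 ± 1.19 CPM (edgeR, adjusted p = 0.0125). No other of the 8 markers was called there, and their median log2 fold change was -0.25. Their summed level was 309 to 381 CPM in the knockdown, below that of M6 control. The part of Zeb1 in the knockdown values was not tested. The part of these cell states in the differences between lines cannot be told apart from that of the line itself.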

How the data were processed

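The unit of both deposited tables used, by gene and by transcript, is the expected count, estimated by StringTie from reads trimmed with cutadapt and aligned with HISAT2 to mm10/GRCm38, per the submitters' processing notes; versions and the strand setting are not given in the sources used here. Libraries were ribosome-depleted total RNA, per the labels' protocols. The authors' 2 normalised tables, each with 1 column matching no sample, were not used. GENCODE M21 matched 48058 genes and 116824 transcripts; unmatched transcripts held 0.196% of counts.

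Columns of technical replicates were summed, 21 to 14. Genes passing filterByExpr (21237) were tested with edgeR 4.0.16 in R 4.3.3 in 1 quasi-likelihood fit over 6 groups (TMM, 8 residual degrees of freedom), and levels are CPM of the scaled library. Transcript shares (at least 20 gene counts, at least 5% in 2 replicates) and exon inclusion (counts divided by transcript length) were arcsine square root transformed and tested with limma 3.58.1. The p-values were combined per gene by the Simes method and adjusted over all genes by Benjamini-Hochberg. The scripts were tested on simulated data for 3T3-L1 against M6 control, where they recovered only part of the changes, least by inclusion and share. By share they recovered 1 of 90 changes of 20 points and 19 of 92 of 40 points, and by inclusion 0 of 26 and 2 of 16. At gene level they recovered 10 of 100 2-fold and 73 of 100 4-fold changes. A member not called is therefore not shown to be unchanged. Calls have an adjusted p under 0.05. DESeq2 1.42.0 was an alternative; the others are below.

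Values in every replicate are given for Ctnnd1, Enah, Arhgef11, Exoc7, Slk and Map3k7 and for members called with separate ranges and at least 10 points. The exon or transcript shown is that of smallest p between 3T3-L1 and M6 control. Other members' values were chosen after they were seen. The members and lists were chosen with earlier results of these data known. Replicate numbers paired the M27H4 samples (correlations of deviations 0.353, 0.249 and 0.24). The motif count in introns was not made, since no genome sequence was used here.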

Additional observations from a re-analysis of the deposited data

How the results depend on the processing

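The numbers of members called were recomputed under other tools, scales, filters and left-out replicates, and no result was reversed. At gene level, leaving out a replicate gave 7 to 14 called members in M27H4 against M6 (13 with all replicates), 8 to 15 in 3T3-L1 against M6 (11) and 5 to 11 in 3T3-L1 against M27H4 (13). By transcript share the same fits gave 1 to 2 in M27H4 against M6 (3), 1 to 2 in 3T3-L1 against M6 (4), 0 to 1 in 3T3-L1 against M27H4 (1), and 0 to 2 in the M6 knockdown (0), where Macf1 and Map3k7 were called without knockdown replicate 2. By exon inclusion they gave 0 to 0 in 3T3-L1 overexpression (1). On the logit scale the share calls were 1, 1 and 0 in the 3 line comparisons, and dividing by transcript length left 0 in 3T3-L1 against M27H4. With no minimum share 1 member, Lsr, was called in 3T3-L1 overexpression. The inclusion call of Lsr became 0 on the logit scale, without division by length, with coding transcripts only and with the replicate block. With 100 counts as the minimum Lsr could not be tested in 3T3-L1 overexpression, since too few replicates reached it. With no minimum of the rarer form, 1 member was called by inclusion in M27H4 against M6 (Slk) and 1 in 3T3-L1 against M6 (Sec31a). With only the lane that held M6 alone, share calls in 3T3-L1 against M6 were 2, and inclusion calls were 1 in the knockdown (Mbnl1) and 2 in 3T3-L1 against M6 (Mbnl1 and Sec31a). With the replicate number as a block, share calls were 1 in M27H4 against M6, 2 in 3T3-L1 against M6 and 0 in 3T3-L1 against M27H4. The block moved all genes called in the M6 knockdown from 29 to 293, with 0 members in both. In 3T3-L1, as in M27H4, samples of the same replicate number were also run on the same lanes. In M6 this held for replicate 1 and only in part for replicate 2. The block therefore cannot tell a shared number from a shared lane. The correlations of deviations were 0.334 in M6 and 0.245 in 3T3-L1, with 2 pairs each. The block is uncertain in both lines, and titles and descriptions number the 3T3-L1 replicates differently. For the members named singly, 428 of the recomputed values kept their call and 88 lost it in the same direction. The cause of these changes was not tested. The count of motifs in the introns around the exons, planned as a description, was not run.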
